A study of Raphanus sativus with 12 samples.

Results

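In radish (Raphanus sativus) leaf blades, 211 of the 30161 genes in the expression table had a deposited description naming a vacuolar-processing enzyme, cysteine protease or proteinase, cathepsin, aspartic or aspartyl protease, subtilisin, serine carboxypeptidase or metacaspase. Genes were taken by these words alone, with case ignored, but the words were chosen with earlier results of these data known. The gamma vacuolar-processing enzyme Rsa10002434 was also named in advance as a gene to include. The set also took in 23 genes described as inhibitors of such enzymes, which are not proteases themselves.

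The study asked about N6-methyladenosine (m6A), a methylated base of messenger RNA, in radish bolting and flowering. The material was XHT, labelled diploid, and no treatment was given. Plants grew at 25 °C with 16 hours of light and at 23 °C in the dark, and leaf blades were taken at 30 days after sowing, in vegetative growth, or at 120 days, in reproductive growth. Both ages had 3 input libraries for ordinary RNA-seq and 3 libraries of m6A immunoprecipitation (IP), and every library pooled the leaves of 3 plants.

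Plant vacuoles hold a set of proteases that break down stored and unwanted proteins, and the enzymes in the wall space trim secreted proteins. Vacuolar-processing enzymes are cysteine proteases that cut after asparagine and mature other vacuolar proteins, among them in Arabidopsis other proteases. Many of these enzymes are best known from leaf senescence, drought and pathogen attack, when leaf protein is recycled or cells die.

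Transcript levels are FPKM, fragments scaled to transcript length and library size, so levels of different genes are compared per length. Library sums ranged from 636795 to 694436 FPKM, with unknown read depth. On the log2(FPKM + 1) scale, Pearson's r among 120-day libraries was 0.971 to 0.985. For replicate 3 of the 30-day libraries it was 0.835 to 0.895 with the other two, and between ages it reached 0.853. Many results that depend on that library are therefore given with and without it, though not all. The median gene tested differed by -0.45 on the log2 scale between 120 and 30 days, and centring each library on its median moved that by 0.44. The counts below are therefore given on both scales and after quantile normalization. Calls described below as made as deposited used FPKM without rescaling, and were made here rather than by the authors. Chlorophyll-binding and Rubisco small chain genes, which mark leaf mesophyll, summed to 12391 FPKM or more in every library, whereas the markers of flowers, seeds and secondary xylem summed to 4.65 FPKM or less. All 10 seed markers, 7 of 10 flower markers and 3 of 4 xylem markers stayed below 1 FPKM in every library.

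Gamma-type vacuolar-processing enzyme, a vegetative form of the vacuolar legumain family in Arabidopsis, had the highest mean FPKM of the set at 30 days and a much lower level at 120 days. The copy Rsa10002434 (chromosome R02, 74613 to 76937, minus strand) had 1312.87, 2626.28 and 1611.25 FPKM in replicates 1 to 3 at 30 days. At 120 days it had 45.43, 71.12 and 75.39 FPKM. Every 30-day library lay far above every 120-day library, and the mean fell from 1850 ± 689 to 64.0 ± 16.2 FPKM (SD, n = 3 per age), a 28.9-fold difference in means. On the log2(FPKM + 1) scale the difference was -4.80 (SE 0.34), with a limma adjusted p of 0.00141 over the 21435 genes tested. By mean FPKM it ranked 7 among the 30161 genes at 30 days and 1573 at 120 days. Among the decreases of all genes tested it ranked 14.

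A further gamma-type copy, Rsa10000410 (Scaffold3011, 2206 to 2993, plus strand), moved by the same amount. Its 30-day libraries held 417.81, 633.44 and 325.94 FPKM, and its 120-day libraries 9.53, 15.4 and 22.44 FPKM. Again the ages did not overlap, and the difference was -4.80 (SE 0.36, limma adjusted p = 0.00153). The R02 copy held between 3.14 and 4.94 times the FPKM of the scaffold copy over the 6 libraries. The sources used here do not say how reads shared by near-identical copies were assigned, so the values of each copy alone are uncertain. Together the copies made up 19.2% to 28.3% of the summed FPKM of all 211 genes at 30 days and 1.17% to 2.04% at 120 days.

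The other vacuolar-processing enzymes were low and were not tested. The beta form Rsa10033288, known from Arabidopsis seeds, had 4.11, 0.82 and 29.33 FPKM at 30 days against 0.39, 0.6 and 0.39 at 120 days. The 30-day libraries all lay above the 120-day libraries but were spread widely, with replicate 3 the highest. The other two, Rsa10000603 and Rsa10023024, stayed below 1 FPKM in every library.

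**Figure D1:**
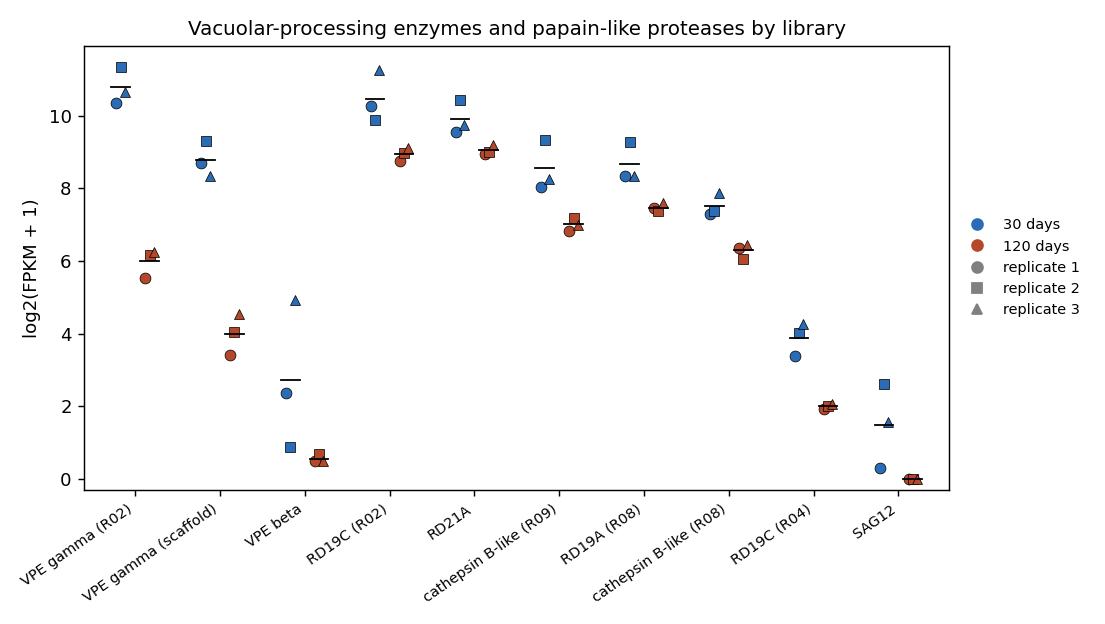
FPKM of vacuolar-processing enzymes and selected papain-like proteases in each input library, as log2(FPKM + 1) on the vertical axis, with blue points for 30 days, red points for 120 days, a marker shape per replicate and a bar at the mean of each age. The gamma copies show the widest gap between the ages, at -4.80 each, and SAG12 lies at 0 in all 120-day libraries.

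Of the 211 genes, 147 reached 1 FPKM in at least 3 of the 6 input libraries and were tested, and 47 of the other 64 stayed below 1 FPKM in every library. Of the aspartic proteases, subtilisins, serine carboxypeptidases and inhibitors, the highest untested genes were the aspartyl protease Rsa10009872 at up to 1.92 FPKM, SBT1.1 Rsa10012654 at up to 2.45, SCPL31 Rsa10037696 at up to 1.37 and WSCP-like Rsa10030039 at up to 1.04, each at 30 days. With limma, 17 were called higher at 120 days, which is 11.6% of those tested, beside 8.40% of all genes tested. Another 44 were called lower, 29.9% beside 37.6% of all genes. The remaining 86 did not pass the threshold. After median centring 28 were called higher and 20 lower, beside 13.8% and 10.2% of all genes, and after quantile normalization 28 and 29, beside 12.4% and 13.1%. Without 30-day replicate 3 the calls were 16 higher and 59 lower, beside 10.2% and 42.8%. The set thus showed more lower than higher calls as deposited, and this order turned under median centring, as it did over all genes. Of the 17 genes called higher, 16 kept that call under both rescalings, and of the 44 called lower, 20 did. Centring moved differences up by 0.44, which favours keeping higher calls, so these counts do not compare how firm the calls were. Over all genes it took the higher calls from 1801 to 2968 and the lower calls from 8052 to 2188. The share of all genes that kept a call was not counted.

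The median log2 difference of the 147 genes was -0.18, against -0.45 for all genes tested, and it was 0.26 after median centring and 0.06 after quantile normalization. A difference of at least 1 on the log2 scale went with a call in 28 genes that were lower, where 14.5% of all genes tested reached that size, and in 13 that were higher, where 5.87% of all genes did. In 82 of the 147 genes the ages did not overlap, and this held for 60.7% of all genes tested.

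The summed level of all 211 genes was 9016, 11520 and 9862 FPKM at 30 days and 4689, 4713 and 4791 FPKM at 120 days. Without the inhibitors and the gamma vacuolar-processing enzymes, the proteases summed to between 6189 and 7588 FPKM at 30 days and between 3679 and 3916 at 120 days, so the ages were apart with or without those genes. In bulk leaf RNA, fewer cells of a type and less RNA per cell cannot be told apart.

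Marker genes of leaf cell types and states also differed between the ages, in both directions. Summed over 30 mesophyll markers, FPKM was 15812, 16045 and 12391 at 30 days and 71105, 87405 and 94367 at 120 days, with 16 of the 28 tested called higher and 1 lower. The 9 markers of leaf senescence, among them STAY-GREEN and the chlorophyll-degrading enzymes, summed to 248, 343 and 744 FPKM at 30 days and to 116 to 140 FPKM at 120 days. Of the 8 senescence markers tested, 5 were called lower and none higher, and 30-day replicate 3 was the highest library. The list was not uniform. Its pheophytinase genes Rsa10005974 and Rsa10026433 overlapped between ages and were higher at 120 days than in 30-day replicates 1 and 2. SAG12, which is in that list, is also 1 of the 211 genes. The 8 phloem markers summed to 254, 241 and 99.2 FPKM at 30 days and 54.1 to 86.2 FPKM at 120 days, with 2 of 6 called lower. The difference in this sum lay mainly in the SUC2 sucrose transporter genes, and the sieve element occlusion genes all overlapped between ages. The part of these cell types and states in the protease levels was not tested.

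By count, papain-like proteases had only lower calls at the main settings, serine carboxypeptidases had about as many higher as lower, and the metacaspases and inhibitors were mostly not called. No difference between classes was tested.

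**Figure D2:**
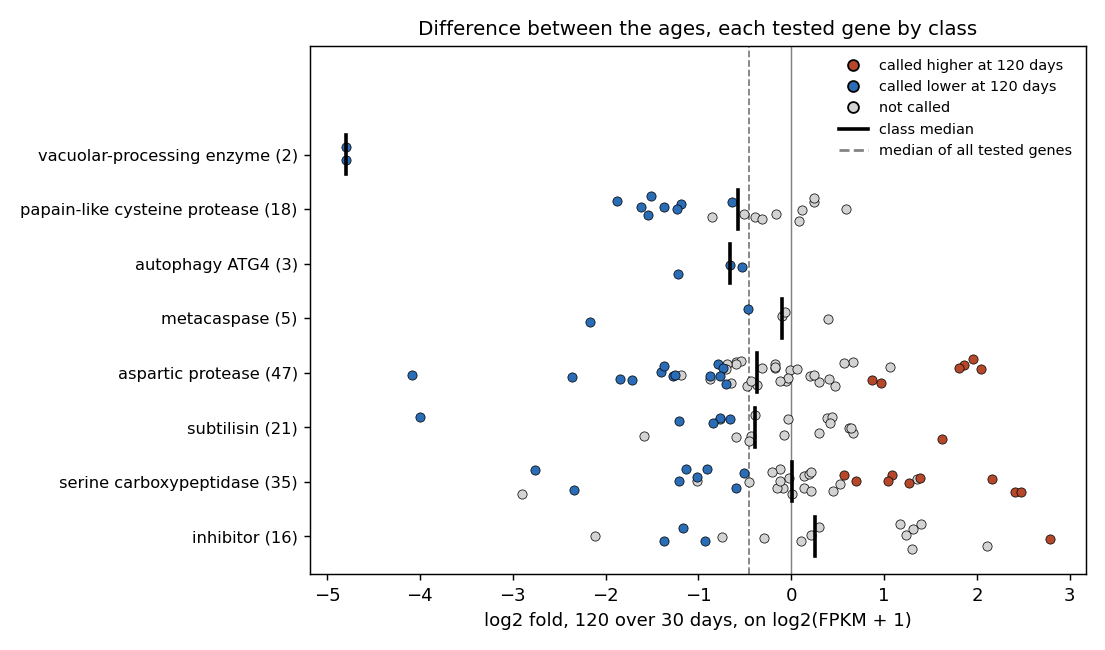
Each tested gene by class, with the number tested in brackets and the log2 difference of 120 over 30 days on the horizontal axis (log2(FPKM + 1) scale). Red points were called higher and blue points lower, black bars are class medians, and the dashed line is the median of all genes tested, -0.45. Vertical placement within a class carries no value.

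Papain-like cysteine proteases are the main hydrolases of the plant vacuole. Of the 26 in this class, which by its words also holds the membrane calpain DEK1, 18 were tested, and 8 were called lower (44.4%, beside 37.6% of all genes) and none higher (beside 8.40%), so the share of lower calls was near that of all genes. The class median was -0.57, and it kept its sign after median centring (-0.14, with 3 called lower) and quantile normalization (-0.20, with 8 called lower). Leaving out each 120-day library in turn left 4 lower calls, with the share over all genes not counted. Without 30-day replicate 3 there were 10, beside 42.8% of all genes.

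The most abundant at 30 days was Rsa10018873 (R02, 9886647 to 9888396), described as RD19C, a vacuolar protease of the group induced by dehydration in Arabidopsis. It had 1226.18, 938.24 and 2458.86 FPKM at 30 days and 431.11, 506 and 554.46 FPKM at 120 days, with no overlap between ages. The log2 difference was -1.51 (SE 0.39, limma adjusted p = 0.0229), and it missed the threshold after median centring (adjusted p = 0.0993) and when any 120-day library or 30-day replicate 1 was left out (0.0522 to 0.0789). Without 30-day replicate 3, its highest library, the difference was -1.12 and was called (limma adjusted p = 0.00676). A less abundant gene of that description, Rsa10025303 (R04, 6953577 to 6954907), fell from 9.37, 15.11 and 18.04 FPKM to 2.82, 3.02 and 3.13 FPKM. Its difference of -1.88 (SE 0.24, limma adjusted p = 0.00354) was called on both other scales as well.

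RD19A occurred as 2 genes that did not share a call. Rsa10027066 fell from 323.31, 626.18 and 324.48 FPKM to 174.65, 164.3 and 192 FPKM (-1.19, SE 0.30, limma adjusted p = 0.0203, and 0.144 after median centring). Rsa10026257 had 100.57, 260.4 and 49.92 FPKM at 30 days against 106.85, 135.49 and 153.27 FPKM at 120 days. The ages of this gene overlapped, and its log2 difference of 0.25 (SE 0.57) was not called, nor was that of -0.31 without 30-day replicate 3.

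All 3 cathepsin B-like genes, whose relatives take part in programmed cell death in Arabidopsis, were called lower. Rsa10006977 had 262.88, 649.3 and 307.51 FPKM at 30 days and 112.8, 145.69 and 126.71 at 120 days (-1.54, SE 0.36, limma adjusted p = 0.0161). Rsa10041533 (-1.23) and the low Rsa10012585 (-1.37) also showed no overlap between ages. After median centring Rsa10012585 alone of these kept its call. The adjusted p was then 0.0866 for Rsa10006977 and 0.0507 for Rsa10041533. Leaving out any 120-day library also took the call from Rsa10006977 (limma adjusted p 0.0507 to 0.0601).

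RD21A, a vacuolar protease with a granulin domain, is represented by Rsa10005285, with 744.86, 1387.96 and 853.32 FPKM at 30 days and 496.52, 510.97 and 589.19 FPKM at 120 days. The ages did not overlap, but the difference of -0.85 (SE 0.30) did not pass (limma adjusted p = 0.0550). It passed after quantile normalization, at 0.0151, and without 30-day replicate 3 (-0.94, limma adjusted p = 0.0347). The RD21A-like gene Rsa10008226 had 112.34 to 196.86 FPKM at 30 days and 114.29 to 140.74 FPKM at 120 days, with overlap between ages.

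Genes tied to special stages were near the detection floor. Rsa10026382, described by the name of a rapeseed protease of germination (COT44), had 2.74, 2.61 and 1.13 FPKM at 30 days. It was listed at 0 in all 3 libraries at 120 days, with a limma adjusted p of 0.00568. The level needed for a test was reached only through its 30-day libraries, so that p is not taken as support for the difference. SAG12 (Rsa10016222), the marker protease of leaf senescence, had 0.22, 5.09 and 1.96 FPKM at 30 days and was listed at 0 in all 120-day libraries, and it was below the level needed for a test. XCP2 (Rsa10040750), a protease of xylem vessels, was likewise not tested and had 6.18 FPKM in 30-day replicate 1 and no more than 1.9 FPKM elsewhere.

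Outside the 211 genes, 2 papain-like genes go by the name aleurain, a vacuolar aminopeptidase. The abundant Rsa10034285 fell from 1029.79, 1520.39 and 1314.92 FPKM to 543.86, 584.34 and 657.59 FPKM (-1.10, SE 0.25, limma adjusted p = 0.0155, and 0.141 after median centring). Rsa10004109 fell from 13.09, 12.07 and 4.62 FPKM to 2.57, 3.51 and 2.59 FPKM (-1.39, SE 0.37, limma adjusted p = 0.0242, and 0.107 after median centring).

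Autophagy delivers cytoplasm to the vacuole, and ATG4 proteases in the cytosol prepare its ATG8 protein. All 3 ATG4 genes were called lower at 120 days, where 37.6% of all genes were, but only 1 after either rescaling. That gene was ATG4a, Rsa10039320, with 12.22, 11.59 and 18.51 FPKM at 30 days and 5, 6.05 and 5.06 FPKM at 120 days (-1.22, SE 0.21, limma adjusted p = 0.00667). The ATG4b copies Rsa10005231 and Rsa10024083 differed by -0.66 and -0.53. Without any single 120-day library these copies lost their calls, with limma adjusted p of 0.0537 to 0.0701 and 0.0883 to 0.120, and the latter copy also lost it without 30-day replicate 1 (0.102) or 2 (0.0705) and with no filter on low values (0.0664).

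Metacaspases cut after arginine or lysine, and in Arabidopsis metacaspase 1 promotes and metacaspase 2 restrains cell death. Of 10 genes 5 were tested, and 2 of these 5 were called lower (beside 37.6% of all genes) and none higher as deposited. Metacaspase-3, Rsa10042026, fell from 9.61, 13.36 and 14.43 FPKM to 2.54, 1.81 and 1.59 FPKM (-2.17, SE 0.21, limma adjusted p = 0.00219), with no overlap between ages and a call on every scale. Metacaspase-1, Rsa10019941, was called lower by a small difference (-0.47, SE 0.13, limma adjusted p = 0.0253), and this call was lost after median centring, after quantile normalization and without any 120-day library or 30-day replicate 1 (0.0540 to 0.104).

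The most abundant was metacaspase-4, Rsa10014924, a form that in Arabidopsis releases a wound signal peptide. It had 81.14, 73.95 and 58 FPKM at 30 days and 99.58, 91.35 and 88.22 FPKM at 120 days. The ages did not overlap. Its difference of 0.40 (SE 0.17) was not called as deposited (limma adjusted p = 0.10) and was called higher after median centring (adjusted p = 0.0173). Metacaspase-2-like Rsa10021823 (-0.07) and metacaspase-3-like Rsa10016177 (-0.10) overlapped between ages, and the sign of each turned after rescaling. Of the untested genes, Rsa10029826 reached 1.47 FPKM, Rsa10005935 1.23 and Rsa10008843 1.07, and Rsa10005787 and Rsa10033297 stayed below 1 FPKM. The summed level of the class was 158 to 174 FPKM at 30 days and 161 to 174 FPKM at 120 days.

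Aspartic proteases were the largest class, with 66 genes. Of the 47 tested, 6 were called higher (12.8%, beside 8.40% of all genes) and 13 lower (27.7%, beside 37.6%). After median centring the counts were 8 and 7, and after quantile normalization 9 and 9, and the class median of -0.37 became 0.07 and -0.04. The share of lower calls over all genes shrank likewise, to 10.2% and 13.1%. The 6 higher and 7 of the 13 lower calls were kept on all 3 scales. Without 30-day replicate 3, 21 were called lower. The summed level was 1382 to 1562 FPKM at 30 days and 730 to 788 FPKM at 120 days.

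The greatest decrease was in Rsa10025025 (R02, 12574811 to 12576998), described by its Arabidopsis relative At5g10770, an aspartyl protease. It had 70.03, 87.04 and 76.37 FPKM at 30 days and 3.94, 3.85 and 3.16 FPKM at 120 days. Replicates lay close together at each age, and the difference was -4.08 (SE 0.15, limma adjusted p = 0.000173). A neighbour of the same family, Rsa10025024, lies 671 bases away. Its levels were 10.94, 7.38 and 6.28 FPKM at 30 days and 14.36, 11.86 and 7.72 FPKM at 120 days, with overlap and a difference of 0.41 that was not called as deposited.

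The typical vacuolar aspartic proteases of plants are the A1 type. Rsa10041105 fell from 319.11, 290.61 and 323.14 FPKM to 134.07, 106.3 and 119.25 FPKM (-1.37, SE 0.17, limma adjusted p = 0.00320). Rsa10041599 fell from 239.58, 383.77 and 293.6 FPKM to 173.95, 189.6 and 162.79 FPKM (-0.77, SE 0.22, limma adjusted p = 0.0300, and 0.351 after median centring), and leaving out any 120-day library ended the call (0.0822 to 0.109). The A1-like gene Rsa10001958 also had no overlap between ages, at -1.19, but was not called (limma adjusted p = 0.0644). Without 30-day replicate 3 it was called lower (-1.61, limma adjusted p = 0.00979).

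Genes named after a guard-cell protease of Arabidopsis that limits water loss, ASPG1, were among the falling ones. Rsa10031940 had 127.57, 41.42 and 151.98 FPKM at 30 days and 17.55, 18.12 and 16.52 FPKM at 120 days (-2.36, SE 0.47, limma adjusted p = 0.0105). Rsa10035069 fell from 182.39, 124.52 and 146.84 FPKM to 45.08, 47.37 and 42.09 FPKM (-1.72, SE 0.18, limma adjusted p = 0.00247). PCS1, which supports cell survival in Arabidopsis gametes and embryos, fell from 56.98, 38.28 and 52.43 FPKM to 13.52, 15.22 and 10.25 FPKM in Rsa10035124 (-1.84, SE 0.22, limma adjusted p = 0.00305). In all 3 genes the ages were apart.

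Among the aspartic proteases that rose, Rsa10030304 (At4g16563 type) went from 6.77, 2.88 and 2.05 FPKM to 15.25, 18 and 19.52 FPKM (2.04, SE 0.35, limma adjusted p = 0.00693). Rsa10034700, aspartyl protease family protein 2, went from 7.15, 6.08 and 3.3 FPKM to 18.34, 23.16 and 29.98 FPKM (1.96, SE 0.29, limma adjusted p = 0.00500). Rsa10013638, an At5g10770-like gene on R07, went from 5.49, 2.57 and 3.92 FPKM to 18.22, 14.29 and 17.55 FPKM (1.86, SE 0.24, limma adjusted p = 0.00371). None of these overlapped between ages. The other gene of that description nearby, Rsa10013640, lies 7346 bases away and was not called, at -0.06.

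The largest increases of the aspartic fold lay outside the set. Basic 7S globulin 2, named for a soybean seed protein that resembles aspartic proteases, occurred in Rsa10015247 with 1.6, 7.24 and 0.47 FPKM at 30 days and 193.19, 230.94 and 193.12 FPKM at 120 days. The log2 difference was 6.03 (SE 0.59, limma adjusted p = 0.00228). Rsa10035898 went from 1, 6.33 and 0.46 FPKM to 121.47, 151.63 and 132.65 FPKM, a difference of 5.61 (SE 0.58, limma adjusted p = 0.00241). They were the only tested genes of a list of 6.

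Subtilisins are serine proteases that mostly act in the cell wall space. Of 33 genes 21 were tested, and 1 was called higher (4.76%, beside 8.40% of all genes) and 5 lower (23.8%, beside 37.6%). After median centring 4 were higher and 1 lower, beside 13.8% and 10.2% of all genes, and after quantile normalization 4 and 2, beside 12.4% and 13.1%. Leaving out any 120-day library left no higher call, with the share over all genes not counted.

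SBT5.6, Rsa10017204 (R09, 3314753 to 3320535), had 123.26, 87.29 and 270.14 FPKM at 30 days and 7.72, 8.44 and 7.75 FPKM at 120 days. The ages were far apart, with 30-day replicate 3 the highest library, and the difference of -4.0 (SE 0.40, limma adjusted p = 0.00229) was called on each scale. SBT1.7, which loosens seed coat mucilage in Arabidopsis, fell from 40.21, 71.02 and 46.56 FPKM to 21.93, 20.45 and 22.06 FPKM in Rsa10028813 (-1.21, SE 0.22, limma adjusted p = 0.00837, and 0.0708 after median centring). SBT6.1, the site-1 protease of the Golgi in Arabidopsis, fell by 0.84 on the log2 scale in Rsa10035875 (SE 0.13, limma adjusted p = 0.00551, and 0.0642 after median centring).

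The 1 subtilisin called higher was Rsa10013120, an SBT1.5 gene, with 3.61, 0.79 and 0.56 FPKM at 30 days and 6.14, 6.62 and 5.83 FPKM at 120 days (1.62, SE 0.41, limma adjusted p = 0.0212). Leaving out any 120-day library ended this call (0.0624 to 0.0726). The most abundant subtilisin at 120 days was Rsa10013102, of the SBT1.4 type, which in Arabidopsis is linked to senescence. It had 90.48, 122.94 and 83.83 FPKM at 30 days and 69.31, 69.46 and 77.62 FPKM at 120 days, a difference of -0.43 that was not called and was near 0 after median centring. Without 30-day replicate 3 it was called lower (-0.54, limma adjusted p = 0.0369).

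Serine carboxypeptidases remove residues from the carboxyl end of proteins, and some members of the family instead act as acyltransferases of plant metabolites. Among the 8 classes this one had the highest share of higher calls, 9 of 35 tested (25.7%, beside 8.40% of all genes), and 8 were called lower (22.9%, beside 37.6%). After median centring 13 were higher and 3 lower, and after quantile normalization 12 and 4. Leaving out a 120-day library lowered the higher calls to between 4 and 5, with the share over all genes not counted. Without 30-day replicate 3 there were 8 higher and 8 lower calls, beside 10.2% and 42.8% of all genes. The summed level was nearly the same at both ages, with 716 to 834 FPKM at 30 days and 785 to 817 FPKM at 120 days.

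**Figure D3:**
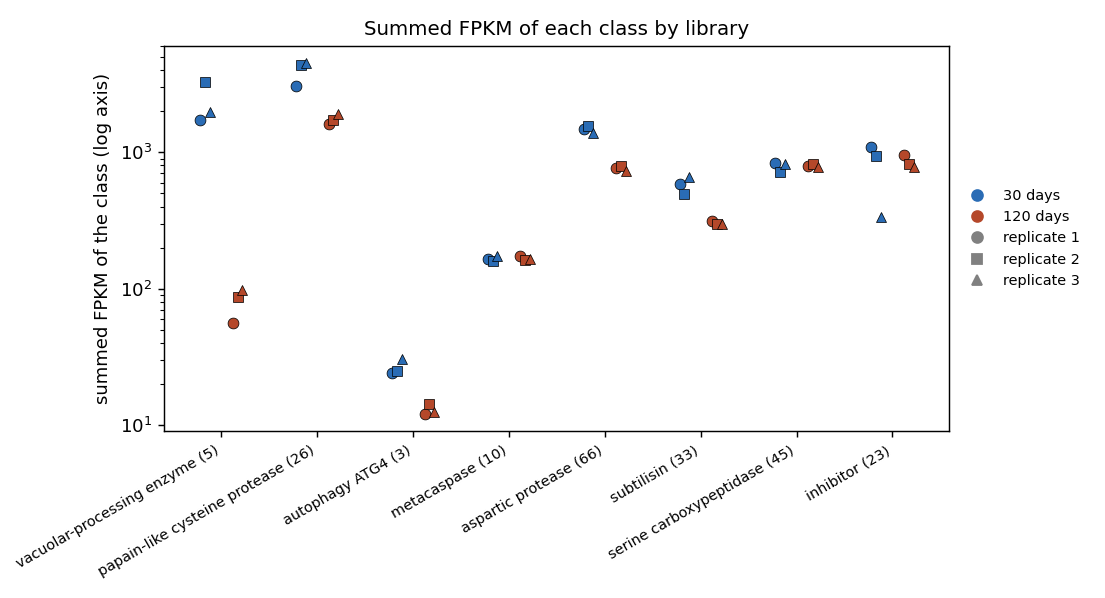
FPKM summed over all genes of each class in each input library on a log axis, with the number of genes in brackets, blue for 30 days, red for 120 days and a marker shape per replicate. The ages overlap for metacaspases, serine carboxypeptidases and inhibitors and are apart for the other classes.

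Both genes described as SCPL34 rose. Rsa10000689 (Scaffold2124) had 17.15, 19.2 and 4.46 FPKM at 30 days and 60.93, 70.66 and 67.42 FPKM at 120 days (2.41, SE 0.49, limma adjusted p = 0.0111). Rsa10019685 (R01) had 5.75, 4.87 and 0.8 FPKM and then 24.61, 19.97 and 21.99 FPKM (2.48, SE 0.50, limma adjusted p = 0.0105). In both, 30-day replicate 3 was the lowest library, and without it the differences were 1.81 and 1.88, both still called (limma adjusted p of 0.00111 and 0.00118). SCPL13 Rsa10035320 had 0.09 FPKM in 30-day replicate 1 and was listed at 0 in the other 30-day libraries. At 120 days it had 3.57, 3.36 and 3.89 FPKM (2.16, SE 0.15, limma adjusted p = 0.00141). This gene reached the level needed for a test only through its 120-day libraries, so that p is not taken as support for the difference.

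The most abundant carboxypeptidase was SCPL10 Rsa10028807 (R01, 9051489 to 9060340). It had 169.07, 111.09 and 58.3 FPKM at 30 days and 244.64, 271.6 and 237.39 FPKM at 120 days, without overlap. The difference of 1.27 (SE 0.38, limma adjusted p = 0.0343) was not called after quantile normalization (adjusted p = 0.0600), nor without any 120-day library or 30-day replicate 2 (0.0557 to 0.104). The next SCPL10 gene, Rsa10028808, lies 9880 bases away and had a difference of 0.01, with overlapping ages. Another SCPL10 gene, Rsa10023199 on R01, had 33.31, 0 and 27.19 FPKM at 30 days and no more than 1.13 FPKM at 120 days. Its libraries at 30 days were split so widely that the difference of -2.90 (SE 1.34) was not called, nor was that of -2.15 without replicate 3.

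SCPL48 and SCPL49 led the called decreases. Rsa10022968 (SCPL48) fell from 41.64, 109.86 and 27.49 FPKM to 7.11, 6.77 and 5.81 FPKM (-2.76, SE 0.48, limma adjusted p = 0.00698). Rsa10002292 (SCPL49) fell from 15.56, 11.52 and 34.45 FPKM to 2.64, 2.74 and 3.16 FPKM (-2.34, SE 0.38, limma adjusted p = 0.00600). The SCPL49 genes Rsa10042859 (-1.01) and Rsa10042858 (-0.51), which are 174 bases apart, were also called lower here without rescaling, and neither was after median centring. Both lie on the minus strand of R05, and whether they are parts of a single gene was not checked. Rsa10023448 (SCPL2) fell from 2.77, 2.41 and 4.4 FPKM to 0.87, 0.74 and 0.73 FPKM (-1.21, SE 0.21, limma adjusted p = 0.00738). The SCPL2 gene reached the level needed for a test only through its 30-day libraries, so that p is not taken as support for the difference. None of these SCPL48, SCPL49 and SCPL2 genes overlapped between ages.

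The 23 inhibitor genes, of which 16 were tested, had 1 higher call (6.25%, beside 8.40% of all genes) and 3 lower calls (18.8%, beside 37.6%), with 12 not called. Their median of 0.26 was 0.69 after median centring and 0.44 after quantile normalization, with 2 higher and 2 lower, and 3 higher and 2 lower calls. Without 30-day replicate 3 the median was -0.09, with 2 higher and 6 lower calls. Most are cystatins, which block papain-like proteases, or water-soluble chlorophyll-binding proteins (WSCP), Kunitz-type proteins that in Arabidopsis inhibit RD21.

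One WSCP-like gene accounted for the higher call. Rsa10022865 (R09, 29994775 to 29995892) had 37.84, 40.93 and 31.93 FPKM at 30 days and 285.83, 189.16 and 325.62 FPKM at 120 days. The ages were apart, and the difference of 2.79 (SE 0.24, limma adjusted p = 0.00176) was the greatest increase among the 147 genes tested. It lies in a run of WSCP genes on R09 whose other tested members within 30000 bases of the next, Rsa10022860 (0.10), Rsa10022862 (-0.29) and Rsa10022863 (0.30), were not called. Without 30-day replicate 3, Rsa10022862 was called lower (-1.28, limma adjusted p = 0.0309), and Rsa10022860 was at -1.12 and not called (0.260).

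WSCP genes varied widely among the 30-day libraries. Rsa10005513 had 115.55, 204.66 and 4.1 FPKM at 30 days and 6.08 to 15.5 FPKM at 120 days. Its difference was -2.11 (limma adjusted p = 0.231), and without replicate 3 it was called lower (-3.75, limma adjusted p = 0.00211). Rsa10022862 had 376.82, 170.38 and 31.41 FPKM at 30 days. In all 9 WSCP genes tested, replicate 3 was the lowest of the 30-day libraries, as it was in 39.1% of all genes tested. None of the 9 was called lower with that library, and 3 were without it. The 11 WSCP genes summed to 731, 589 and 138 FPKM at 30 days and 509 to 626 FPKM at 120 days.

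Among the cystatins, Rsa10036511 fell from 22.67, 19.8 and 33.49 FPKM to 9.78, 8.88 and 8.26 FPKM (-1.37, SE 0.21, limma adjusted p = 0.00551). Rsa10034682 fell from 75.87, 51.34 and 71.6 FPKM to 33.89, 29.76 and 22.85 FPKM (-1.17, SE 0.22, limma adjusted p = 0.00877). A gene described only as a cysteine protease inhibitor, Rsa10031156, was called lower at -0.93 (SE 0.28, limma adjusted p = 0.0347), but not after either rescaling, nor without any 120-day library or 30-day replicate 1 (0.0734 to 0.115). The abundant Rsa10025098 had 218.34, 192.14 and 82.28 FPKM at 30 days and 196.26, 159.44 and 173.08 FPKM at 120 days, with overlapping ages. Its difference of 0.21 was not called, and became -0.22 without 30-day replicate 3.

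**Figure D4:**
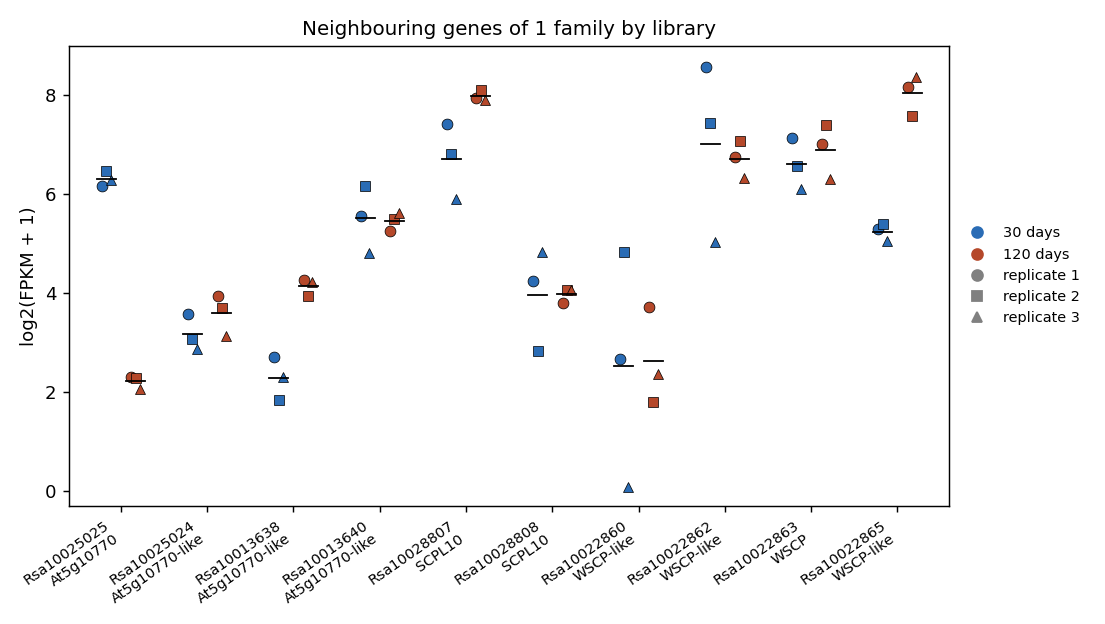
Neighbouring genes of 1 family, chosen after their values were seen, in each input library as log2(FPKM + 1), with blue for 30 days, red for 120 days, a marker shape per replicate and a bar at the mean of each age. From the left they are a couple on R02, a couple on R07, a couple on R01 and a run of 4 on R09. In each group, the ages are apart as a called difference in a single gene (Rsa10025025, Rsa10013638, Rsa10028807 and Rsa10022865).

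Genes with the same description often differed in their calls. Of 33 descriptions shared by at least 2 tested genes, 6 had all genes called lower and 1 had all called higher. In 15 some genes were called and some were not, and 10 had no call. In 3 descriptions genes were called in both directions. These were aspartyl protease family protein 1, At5g10770-like and At4g16563, with At4g16563 genes at -1.27 in Rsa10018901 and 2.04 in Rsa10030304.

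Gene ontology terms in the deposited table placed 128 of the 211 genes outside the cell, in the apoplast or in the cell wall only, 55 both there and in the vacuole or lysosome, 2 in the vacuole only and 26 in none of these. Of the 89 tested genes with only extracellular terms, 13 were called higher (14.6%) and 16 lower (18.0%), with a median of -0.03. Over all genes tested the shares were 8.40% and 37.6% and the median -0.45. Of the 35 tested with both, 4 were called higher (11.4%) and 18 lower (51.4%), with a median of -0.59. After median centring the counts were 20 higher and 9 lower for the extracellular genes, and 6 and 8 for those with both. After quantile normalization they were 19 and 11, and 7 and 15. Among the 23 tested with none of the terms, 10 were called lower (43.5%) and none higher as deposited, and 2 higher and 3 lower after median centring. The difference between these groups was not tested.

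Other proteases and other parts of the vacuolar system were counted from word lists, beside 8.40% higher and 37.6% lower calls and a median of -0.45 over all genes tested. Of 43 tested genes of the vacuolar proton pumps, which acidify the vacuole, 4 were called higher (9.30%) and 12 lower (27.9%), with a median of -0.39. The share of lower calls was below that of all genes. After median centring these counts were 8 and 3. Of 7 vacuolar sorting receptors, which carry proteases to the vacuole, 1 was called lower (14.3%) and none higher, and after median centring 2 were higher and none lower. Of 44 tested genes of the FTSH, Clp and Do-like proteases, which act in plastids or, by the descriptions of some, in mitochondria, 2 were called higher (4.55%) and 9 lower (20.5%), and after median centring 7 and 1. Of 7 tested protease inhibitors outside the set, 1 was called higher (14.3%) and 4 lower (57.1%), and after median centring 1 and 2. Of 3 tested extracellular metalloproteases 2 were called lower on all scales, and the other was called higher after either rescaling. The 2 called lower reached the level needed for a test only through their 30-day libraries, so these calls are not taken as support.

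The authors' deposited table marked 58 of the 211 genes as different between the ages, 20 up and 38 down. The share of all genes so marked was not counted. Of the 49 of these that were tested here, 40 were called in the same direction as in the authors' deposited table. The mark and the calls here rest on unlike cut-offs, so their overlap does not measure agreement. The authors left Rsa10013585 unmarked at a log2 fold of 0.94 and a q below 0.01, and marked Rsa10028813 at -1.29 and a q of 0.11. For metacaspase-1 Rsa10019941 the authors' q was 0.99 at a fold of -0.50, although it was called lower here. Since 61 genes were called here, some calls in both directions were not marked there. Among these were the lower calls of Rsa10027066 (RD19A) and Rsa10019941 (metacaspase-1) and the higher call of Rsa10013585. A further 9 marked in the authors' deposited table, 1 up and 8 down, fell below the level needed for a test here.

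The m6A values were the differential peaks of the authors' deposited table, each with the authors' own log2 fold of 120 over 30 days. They come from the IP libraries, and the sources used here do not say whether the fold takes the input level into account. Of the 211 genes, 18 had such a peak in the authors' deposited table, 1 each, which is 8.53% beside 17.2% of all genes. Among tested genes the shares with a peak in the authors' deposited table were 11.6% and 23.3%. Of the 18 peaks, 16 were higher and 2 lower at 120 days, while 96.8% of all peaks in the authors' deposited table were higher and 3.21% lower. The median of the higher peaks was 0.55 in these genes and 0.51 over the authors' deposited table.

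Most peaks lay at the end of the transcript. Of the 18, 15 were annotated as exonic in the authors' deposited table, beside 63.0% of all peaks, and 3 as in the 3′ untranslated region, beside 34.5%. The 3′ end of the gene was reached by 15, and by 70.0% of all peaks in the authors' deposited table. The 5′ end was reached by 2, and by 5.79% of all peaks in the authors' deposited table. One of these covers the whole of the short gene Rsa10042859. The other is the peak in the gamma vacuolar-processing enzyme.

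That peak in Rsa10002434 (R02, 76560 to 76937) lay at the start of the transcript, 1947 bases from the 3′ end of the gene. Its log2 fold in the authors' deposited table was -4.78, with an FDR of 1e-130. Of the 5476 peaks in the authors' deposited table, 12 had a fold that low or lower, this one included. The expression of the gene differed by -4.80, as given above.

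The other lower peak was in the ATG4b gene Rsa10024083, at -1.12 in the authors' deposited table, with an expression difference of -0.53. The remaining ATG4 genes had higher peaks in the authors' deposited table, at 0.98 in ATG4a Rsa10039320 and 0.55 in ATG4b Rsa10005231, and both genes were called lower in expression. SBT5.6 (Rsa10017204) had a higher peak at its 3′ end, 0.90 in the authors' deposited table, beside an expression difference of -4.0. Of the 15 higher peaks in tested genes, 9 lay in genes called lower, 5 in genes not called and 1 in a gene called higher, Rsa10034700, whose peak was 0.81 in the authors' deposited table. Over all tested genes 56.9% of the higher peaks of the authors' deposited table lay in genes called lower. Cathepsin B-like Rsa10041533, SCPL49 Rsa10042859 and aspartyl protease family protein 1 Rsa10013754 had peaks of 0.43, 0.47 and 0.47 in the authors' deposited table. The others were SCPL27 Rsa10018509 (0.59), SCPL7 Rsa10011073 (0.36), the low-temperature-induced cysteine proteinase Rsa10037605 (0.59), SBT3.4 Rsa10039503 (0.38), Asp1 Rsa10024358 (0.59) and the aspartic proteinase-like protein 2 genes Rsa10019968 (0.54), Rsa10041303 (0.53) and Rsa10021525 (0.27), all in the authors' deposited table. Of these, the expression of Rsa10037605 (-0.47, limma adjusted p = 0.0244), Rsa10041303 (-0.93, 0.00637) and Rsa10024358 (-0.66, 0.0125) was called lower only without 30-day replicate 3. The highest fold, 2.79 in the authors' deposited table, belonged to the untested A2-type gene Rsa10019263, with an FDR of 0.0661.

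**Figure D5:**
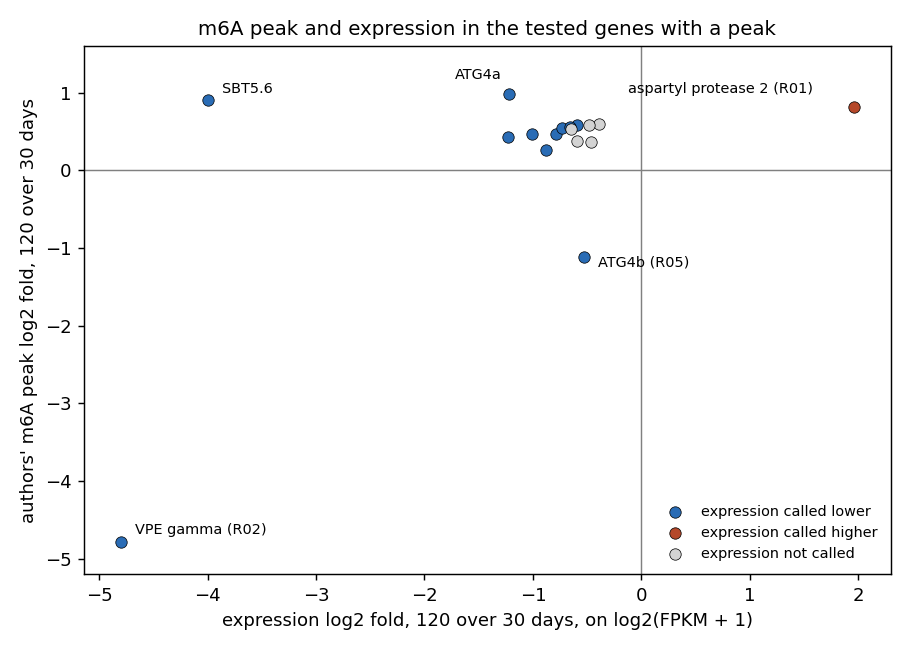
The 17 tested genes with a differential m6A peak, with the expression difference (log2 of 120 over 30 days, log2(FPKM + 1) scale) on the horizontal axis and the authors' peak log2 fold on the vertical axis, coloured by the expression call. The gamma vacuolar-processing enzyme lies alone at -4.80 and -4.78, and SBT5.6 at -4.0 and 0.90.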

How the data were processed

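The authors deposited FPKM for the 6 input libraries, and fold changes with p-values and q-values for their own comparison, per the file headers. For m6A peaks the authors deposited a log2 fold, p-value and FDR for each peak, per the file headers. The submitters' processing notes name fastp, FastQC, HISAT2, StringTie, HOMER and edgeR, without versions. Genome build, strand setting, peak caller and the handling of multiply mapped reads are not given in the sources used here. Low FPKM values formed no steps of whole reads, so read depth is unknown and no counting interval is given.

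Genes that reached 1 FPKM in 3 or more of the 6 input libraries were tested with limma 3.58.1 (R 4.3.3, eBayes with trend) on log2(FPKM + 1), 3 against 3 libraries, 2-sided, with Benjamini-Hochberg adjustment over all 21435 genes and a threshold of 0.05. This scale understates the change of low genes, and an exact test of 3 against 3 cannot go below p = 0.1. Peaks were joined by gene and described without a test, and no value per IP library was used. The test was tried on simulated data. Alternatives changed the pseudocount, the filter, the scaling, the trend, the replicate block and the libraries left out. The members, classes and lists were chosen with earlier results of these data known. The genes named are all vacuolar-processing enzymes and metacaspases, the most changed called and the most abundant genes of each class, and genes with peaks. Others (Rsa10025024, Rsa10013640, Rsa10028808, Rsa10023199, Rsa10005513, Rsa10022862, Rsa10026257, Rsa10008226 and further ones given for comparison) were chosen after their values were seen.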

Additional observations from a re-analysis of the deposited data

How the results depend on the processing

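The difference in the gamma vacuolar-processing enzyme Rsa10002434 stayed between -5.16 and -4.37 and past the threshold in each alternative. Among the 39 named genes called, 23 kept their call in all of them. Pseudocounts of 0.1 and 0.01 and limma with no trend took no call from a named gene. Median centring gave 28 higher and 20 lower calls in the whole set, quantile normalization 28 and 29, and median centring without 30-day replicate 3, chosen after seeing the data, 37 and 27. The share over all genes was not counted for the last of these settings.

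By class, median centring gave 2 higher and 2 lower calls for inhibitors, 1 lower for ATG4, and 1 higher and 1 lower for metacaspases. It gave 3 lower for papain-like, 8 higher and 7 lower for aspartic, and 4 higher and 1 lower for subtilisins. Serine carboxypeptidases had 13 higher and 3 lower, and the shares over all genes were 13.8% higher and 10.2% lower. Quantile normalization gave 3 higher and 2 lower for inhibitors, 1 lower for ATG4, 1 lower for metacaspases and 8 lower for papain-like. It gave 9 higher and 9 lower for aspartic, and 4 higher and 2 lower for subtilisins. Serine carboxypeptidases then had 12 higher and 4 lower, and the shares over all genes were 12.4% higher and 13.1% lower. Centring without 30-day replicate 3 gave 4 higher for inhibitors, 1 lower for ATG4, and 2 higher and 1 lower for metacaspases. It gave 1 higher and 4 lower for papain-like, 5 higher and 2 lower for subtilisins, and 16 higher and 3 lower for serine carboxypeptidases. For this last setting the lower calls of inhibitors and all calls of aspartic proteases are not listed. With no filter 1 papain-like gene was called higher, and a filter of 5 FPKM left 5 serine carboxypeptidases called higher, since fewer genes were tested. The cause of the other changes was not tested.

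Leaving out 1 library at a time gave 9 to 19 higher and 25 to 59 lower calls in all. The ranges were 1 to 4 higher and 2 to 6 lower for inhibitors, 1 to 3 lower for ATG4, 1 to 2 lower for metacaspases, 4 to 10 lower for papain-like, 7 to 21 lower for aspartic, 0 to 3 higher and 3 to 9 lower for subtilisins, and 4 to 9 higher and 4 to 10 lower for serine carboxypeptidases. Among these settings, the shares over all genes were counted only without 30-day replicate 3, at 10.2% higher and 42.8% lower. For the other settings, a change in these counts cannot be told apart from a change over all genes. Directions not named for a class were left out of this list.

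Same-numbered libraries of the 2 ages had deviations from their age means that correlated at 0.272, 0.142 and 0.0814, so the numbers were not taken to pair the libraries, though each library correlated best with its own number. With the replicate block, 2 inhibitors were called higher and 1 metacaspase lower. Under it 2 of the 3 ATG4 genes were called lower (Rsa10024083 was not, limma adjusted p = 0.0678), and the other class counts moved by less than 1.5 times.

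The sign turned in 6 named genes, none of them called. Rsa10011073 was at 0.03 after centring without 30-day replicate 3, Rsa10013102 at 0.00 after centring and Rsa10025098 between -0.22 and 0.48 with a library left out. Rsa10037605 reached 0.05 under centring and 0.01 under quantile normalization, and Rsa10016177 0.34 and 0.43 under centring, 0.29 under quantile normalization and -0.47 to 0.14 with a library left out. Rsa10021823 reached 0.37 and 0.61 under centring, 0.22 under quantile normalization and -0.21 to 0.17 with a library left out. An FDR of at most 0.01 left 17 of the 18 genes with peaks. DESeq2 was not run, since no counts were used.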
